A study of Saccharomyces cerevisiae with 4 samples.

Results

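Yeast keeps several proteins of respiration and translation as gene pairs, in which one isoform is made when oxygen and heme are plentiful and the other when they are scarce. The 9 genes described here were picked by name for these known roles out of 6673 genes listed in each library. The rule uses no measured value, but earlier results of these data were known when the choice was made. The genes are *CYC1* (YJR048W) and *CYC7* (YEL039C) for cytochrome c, and *COX5A* (YNL052W) and *COX5B* (YIL111W) for a subunit of cytochrome c oxidase that exists in both forms. The ADP/ATP carriers of the inner mitochondrial membrane are *AAC2* (YBL030C, also called *PET9*), *AAC1* (YMR056C) and *AAC3* (YBR085W). The translation factor that carries hypusine, a modified lysine, is encoded by *HYP2* (YEL034W) and *ANB1* (YJR047C). *CYC1*, *COX5A*, *AAC2* and *HYP2* are the isoforms known for aerobic growth, *AAC1* is a minor aerobic carrier, and *CYC7*, *COX5B*, *AAC3* and *ANB1* are known as the hypoxic isoforms.

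RNA was sequenced from 2 libraries of a wild type (WT) strain and 2 of a strain without *PUF3* (*PUF3Δ*), which lacks an RNA-binding protein known to bind messages of mitochondrial proteins. Cells of both strains went from YPD into YPEG, whose carbon sources are ethanol and glycerol, on which cells must respire, and no treatment was given. The labels name BY4742 for both strains and list the alleles his3Δ1, leu2Δ0, met15Δ0 and ura3Δ0 for the wild type, while the paper names BY4741. *PUF3* itself had 569 and 761 reads in the WT libraries, but 2 and 6 in those of *PUF3Δ*, which fits the deletion. *LYS2*, which BY4742 lacks, had at most 4 reads in a library. The labels also give the mating type as MATa, but the alpha-cell gene *MF(ALPHA)1* had at least 5560 reads in each library and the a-cell gene *MFA1* at most 10, and *MET17*, the gene removed in met15Δ0, had at least 1120. Libraries held 6703910 to 8228693 reads on genes, recovered as whole reads from 100% of the deposited values (tolerance 0.05 of a read). The labels do not say whether the replicates were separate cultures, so the p-values may measure only technical spread, and in RNA from a whole culture fewer expressing cells and less RNA per cell cannot be told apart.

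In yeast, heme made in the presence of oxygen serves as the signal. It switches on Hap1, and the Hap complex with its activating subunit Hap4 drives respiratory genes, while Rox1 together with Mot3 and the Tup1-Cyc8 corepressor shuts off the hypoxic genes. *HAP1* of laboratory strains derived from S288C, the background of the BY strains, carries a transposon insertion that weakens it. Cultures in YPEG respire and need oxygen, and the hypoxic isoforms are known to be kept low in such cells.

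The coding sequences of the pairs are shown here because their likeness decides how well short reads can be given to the right isoform. Each stretch holds 20 codons from the middle of the aligned pair, from RefSeq R64, 5′ to 3′ on the coding strand, with the bases that differ from the partner in capitals.
CYC1 (chrX:526467-526526, plus strand): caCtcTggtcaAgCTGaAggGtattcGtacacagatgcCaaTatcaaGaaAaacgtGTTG
CYC7 (chrV:79774-79833, minus strand): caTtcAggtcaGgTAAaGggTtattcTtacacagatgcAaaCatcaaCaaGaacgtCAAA
COX5A (chrXIV:531929-531988, plus strand): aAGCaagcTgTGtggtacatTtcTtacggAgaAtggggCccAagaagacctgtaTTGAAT
COX5B (chrIX:155505-155564, plus strand): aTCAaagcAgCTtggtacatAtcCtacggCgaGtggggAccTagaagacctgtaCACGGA
AAC2 (chrII:163476-163535, minus strand): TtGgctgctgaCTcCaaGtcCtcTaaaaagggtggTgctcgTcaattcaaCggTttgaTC
AAC3 (chrII:416412-416471, plus strand): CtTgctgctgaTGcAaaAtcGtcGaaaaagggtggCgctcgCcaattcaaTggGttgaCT
HYP2 (chrV:85880-85939, plus strand): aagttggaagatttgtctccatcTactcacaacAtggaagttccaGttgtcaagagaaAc
ANB1 (chrX:525118-525177, minus strand): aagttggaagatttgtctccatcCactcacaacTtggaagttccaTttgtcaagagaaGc

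Over these 60 bases the cytochrome c genes differ at 17 positions, the *COX5* genes at 18, *AAC2* and *AAC3* at 14, and *HYP2* and *ANB1* at 4. Over the whole aligned coding sequence, *HYP2* and *ANB1* share 91.1% of bases and 90.4% of 157 residues. *CYC1* and *CYC7* share 76.5% of bases and 83.5% of 109 aligned residues, and *AAC2* and *AAC3* 78.0% and 89.3% of 307. *COX5A* and *COX5B* share 66.2% and 65.3% of 150. The reads were mapped with no more than 2 mismatches, and the read length and the handling of reads with several hits are not given in the sources used here. Of the 36-base windows of *HYP2*, 170 of 439 (38.7%) match *ANB1* with at most 2 mismatches and 16 (3.64%) match it exactly. In 75-base windows with at most 2 mismatches it was 1 of 400. Of the 36-base windows of *CYC1*, 27 of 295 (9.15%) match *CYC7* with at most 2 mismatches and 0 match it exactly, and *AAC2* has 3 of 922 such windows in *AAC3*. *COX5A* and *COX5B* share 0 of 427, as do *AAC2* and *AAC1* (0 of 922). Reads of *ANB1* are thus the hardest to tell from those of its partner, and the other pairs are separable over most of their length.

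On R64, 8 of the genes have a single coding exon. *COX5B* (IX, 155222 to 155765) has 2, of which the first holds 1 base and the second 455. *ANB1* (X, 524908 to 525381, minus strand) and *CYC1* (X, 526335 to 526664, plus strand) lie head to head, with 953 bases between their start codons, so a hypoxic gene of one pair and the aerobic gene of another share an upstream region. *CYC7* (V, 79636 to 79977, minus strand) and *HYP2* (V, 85676 to 86149, plus strand) are both on chromosome V, with 5698 bases between their start codons. *AAC2* (163041 to 163997, minus strand) and *AAC3* (415983 to 416906, plus strand) are on chromosome II, *AAC1* (387315 to 388244, minus strand) is on XIII and *COX5A* (531725 to 532186, plus strand) on XIV. *HYP2* is overlapped over its whole length by YEL034C-A on the other strand. That gene was listed at 0 and 0.201 RPKM in WT and 4.94 and 2.45 in *PUF3Δ*, and how reads of overlapping genes were divided is not given in the sources used here. No other member overlaps a listed gene.

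Upstream of the start codon, 3 of the 4 hypoxic genes hold the letters ATTGTT, the core of the element read by the repressor Rox1. *ANB1* has 4 matches within 600 nt, all on its coding strand and 193 to 312 nt before the start codon, and 3 of them read ATTGTTC. The stretch that holds them, from 322 to 178 nt before the start codon, is shown because it lies between *ANB1* and *CYC1*. The 4 matches are in capitals.
ANB1 upstream (chrX:525559-525703, minus strand): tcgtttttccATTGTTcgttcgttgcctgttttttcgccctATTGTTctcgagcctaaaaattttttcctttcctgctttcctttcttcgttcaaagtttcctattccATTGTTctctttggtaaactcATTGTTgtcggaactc
COX5B upstream (chrIX:154988-155013, plus strand): ttgattttgtATTGTTcgataaggca
AAC3 upstream (chrII:415779-415804, plus strand): tttctttttcATTGTTtggttgcctt

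*COX5B* has 3 matches on either strand, of which the one printed, 224 nt before the start codon, goes on with C. *AAC3* has 1, at 194 nt, *CYC7* has 0, and of the 5 aerobic genes *COX5A* alone has 1, on the other strand. The match of aerobic *COX5A* also reads ATTGTTC, while that of hypoxic *AAC3* does not, so the longer form is not limited to the hypoxic genes. ATTGTT stands in 54.8% of the 5966 upstream windows of this length and ATTGTTC in 13.9% (both strands counted, and each ATTGTTC is also an ATTGTT), so single matches are common. CCAAT, the core read by the Hap complex, stands in 70.5% of the windows. *AAC2* has 4 matches, *HYP2* 3, *COX5A*, *COX5B*, *CYC7* and *AAC1* have 2 each, *AAC3* has 1, and *CYC1* and *ANB1* have 0. Downstream, TGTANATA, the core of the Puf3 element, was found in the 200 nt after the stop codon of 0 of the 9 genes, and in 14.1% of the 5966 windows of this kind. A match is a stretch of letters, and neither a match nor its absence shows whether a factor acts there.

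**Figure D1:**
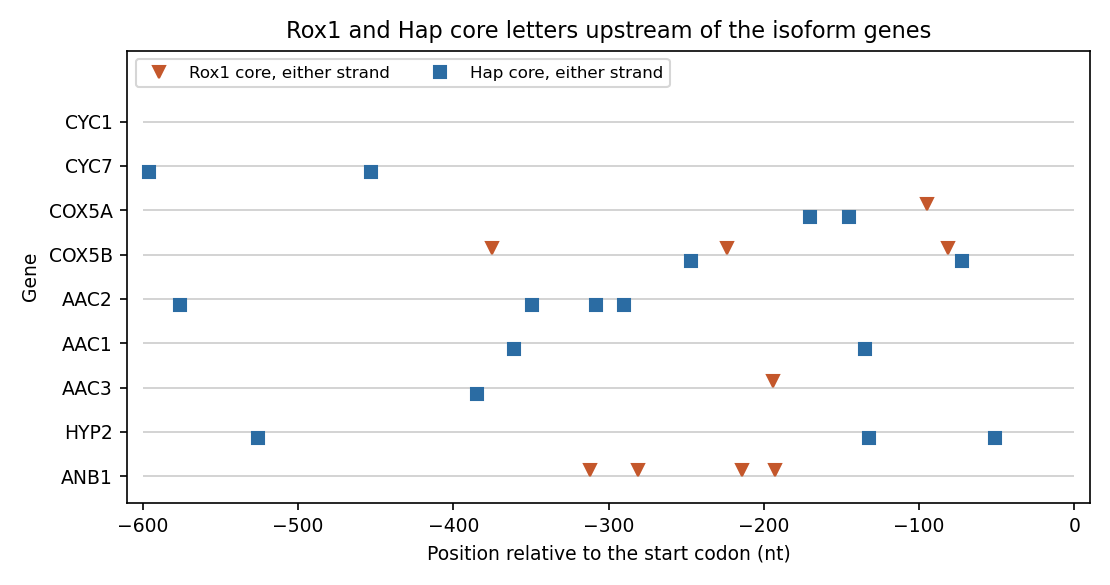
Positions of the Rox1 core (triangles) and the Hap core (squares) on either strand, in nt before the start codon, for the 9 genes over 600 nt. The 4 Rox1 cores of *ANB1* lie between 193 and 312 nt, and *CYC1* has neither core.

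In the WT cells grown on ethanol and glycerol, every aerobic main isoform stood far above its hypoxic partner. *AAC2* had the highest level of the 9, with an RPKM (reads per kilobase of gene and per 1000000 reads on the listed genes, a level corrected for length) of 1796 and 1931 in the 2 WT libraries. *COX5A* followed with 1199 and 1249, *HYP2* with 1091 and 1041 and *CYC1* with 697.3 and 675.6. Their ranks by mean level over the 4 libraries were 20, 132, 116 and 261 of 6673 genes.

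*AAC1* reached only 31.6 and 36.5 RPKM in WT, *COX5B* 27.4 and 26.7, and *CYC7* 21.4 and 22.7. *ANB1* had 2.29 and 5.37 RPKM in WT, from 8 and 21 reads, and *AAC3* had 1.32 and 1.45, from 9 and 11 reads. No neighbours in this WT order overlapped between their libraries. In *PUF3Δ* the order changed at 2 places, with *HYP2* above *COX5A* and *CYC7* above *COX5B*, and the latter pair overlapped.

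As a share of the summed RPKM of its family, *CYC7* made up 3.11% ± 0.19 (SD, n = 2) in WT and *COX5B* 2.16% ± 0.10. *AAC1* made up 1.79% ± 0.090 of the carriers (SD, n = 2), *AAC3* 0.0728% ± 0.00086 and *ANB1* 0.361% ± 0.22 of its pair. The hypoxic isoforms therefore fell into a group of a few percent, *CYC7* and *COX5B*, and a group well under 1%, *AAC3* and *ANB1*.

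**Figure D2:**
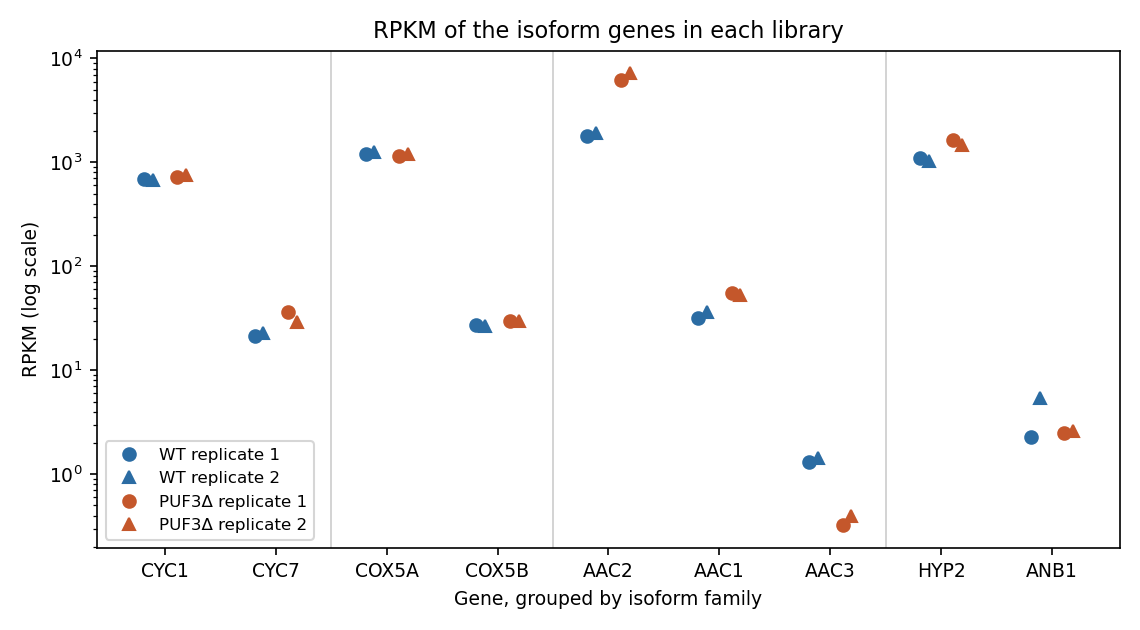
RPKM on a log axis for each of the 9 genes, with 1 point per library (circles for replicate 1, triangles for replicate 2) in WT (blue) and *PUF3Δ* (orange). *AAC2* rises from 1796 and 1931 to 6246 and 7192, while *CYC1* and *COX5A* stay near their WT level.

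The effect of deleting *PUF3* was read from limma's test on log2(RPKM + 1), a scale that understates the change of low genes. It covered the 5860 genes whose mean RPKM was 1 or more. Of the 8 members tested, 4 rose in *PUF3Δ* at a Benjamini-Hochberg adjusted p under 0.05, namely *AAC2*, *AAC1*, *CYC7* and *HYP2*. None was lower (0 also at an unadjusted p under 0.05 and 0 by limma's voom on the recovered reads). Among all genes tested, 18.9% were called higher and 54.2% lower, and the median log2 fold change was -0.39, against 0.35 over the 8 members.

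*AAC2*, the carrier that exchanges mitochondrial ATP for cytosolic ADP during respiration, had 1796 and 1931 RPKM in WT and 6246 and 7192 in *PUF3Δ*. The strains did not overlap, and the mean went from 1864 ± 95.5 (SD, n = 2) to 6719 ± 669.5, 3.60 times the WT level. The log2 fold change was 1.85 (standard error, SE, 0.10, limma adjusted p = 1.5e-05), the rank 86 from the top of 5860 genes. The gene took up 0.172% and 0.185% of all reads in the WT libraries and 0.598% and 0.689% in the *PUF3Δ* libraries. The genes outside the 9 with the nearest profile over the 4 libraries were *CMK2*, a calmodulin-dependent kinase, *COX17*, a copper carrier for cytochrome oxidase, and *YIG1*. Their distances to *AAC2* in centred log2(RPKM + 1) were 0.050, 0.10 and 0.11, and their log2 fold changes 1.87, 1.78 and 1.74.

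*AAC1*, the minor aerobic carrier, had 31.6 and 36.5 RPKM in WT and 55.6 and 52.9 in *PUF3Δ*. Both *PUF3Δ* libraries lay above both WT libraries, with a log2 fold change of 0.66 (SE 0.11, limma adjusted p = 0.0011). *AAC3*, the hypoxic carrier, was lower in *PUF3Δ*, and went from 1.32 and 1.45 RPKM to 0.323 and 0.400. In reads, this was 9 and 11 for the WT libraries against 2 and 3 for *PUF3Δ*, so the gene fell below the filter and was not in the test. Relative to the reads of each strain, its level in WT was 3.80 times that in *PUF3Δ*, with an exact 95% interval from 1.38 to 13.0 that covers counting error only. With no filter on low values, the log2 fold change was -0.81 (SE 0.21, limma adjusted p = 0.015).

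*HYP2*, the aerobic gene of the hypusine-bearing factor, had 1091 and 1041 RPKM in WT and 1638 and 1476 in *PUF3Δ*, again without overlap (log2 fold change 0.54, SE 0.08, limma adjusted p = 0.00094). Its near copy *ANB1* had 2.29 and 5.37 in WT and 2.51 and 2.59 in *PUF3Δ*, from 8, 21, 8 and 10 reads. The *PUF3Δ* values lie between the WT values, and the log2 fold change of -0.37 (SE 0.35, limma adjusted p = 0.37) was within the spread of the WT libraries. It depended on single libraries, with 0.11 (adjusted p = 0.75) without WT replicate 2 and -0.84 (adjusted p = 0.026) without WT replicate 1.

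*CYC7*, the hypoxic cytochrome c, had 21.4 and 22.7 RPKM in WT and 36.5 and 29.1 in *PUF3Δ*, from 54, 64, 84 and 81 reads. The strains did not overlap, and the log2 fold change was 0.55 (SE 0.13, limma adjusted p = 0.0082). Without *PUF3Δ* replicate 1, the higher of that strain, it was 0.39 and no longer past the threshold (adjusted p = 0.079). *CYC1*, the main cytochrome c, had 697.3 and 675.6 RPKM in WT and 715.6 and 748.7 in *PUF3Δ*. Its log2 fold change of 0.09 (SE 0.07, limma adjusted p = 0.29) missed the threshold.

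*COX5A* had 1199 and 1249 RPKM in WT and 1165 and 1198 in *PUF3Δ*, and the nearest libraries of the strains differed by less than 1 RPKM. Its log2 fold change was -0.05 (SE 0.07, limma adjusted p = 0.56). *COX5B* had 27.4 and 26.7 in WT and 30.1 and 29.98 in *PUF3Δ*, so both were higher, and its log2 fold change was 0.15 (SE 0.10, limma adjusted p = 0.21).

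These directions have to be read against the shift of the whole table. Scaling the libraries by the median of ratios moved the median of all genes to -0.01, and 33.9% of genes were then called higher and 33.1% lower. On that scale 7 of the 8 members were higher, all but *ANB1*, with a median log2 fold change of 0.72. *CYC1* had 0.48 (adjusted p = 0.0011 from limma), *COX5B* 0.53 (adjusted p = 0.0030) and *COX5A* 0.34 (adjusted p = 0.0055). The members are short, with listed intervals of 330 to 957 bases in the deposited files, and short genes stood lower in *PUF3Δ* as deposited. The 667 genes of at least 300 and under 500 bases had a median log2 fold change of -0.68, and 9.45% of them were called higher. A loess correction of each library for length and GC content called 33.2% of the 5609 genes it covers higher and 31.9% lower, and again 7 of the 8 members higher, with *CYC1* at 0.72, *COX5A* at 0.48 and *AAC2* at 2.26. Which of these scales is nearest to the number of molecules per cell cannot be told apart from these files. As deposited and under both corrections, *AAC2*, *AAC1*, *CYC7* and *HYP2* were called higher each time, and the call of *CYC1*, *COX5A* and *COX5B* depended on the scale.

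**Figure D3:**
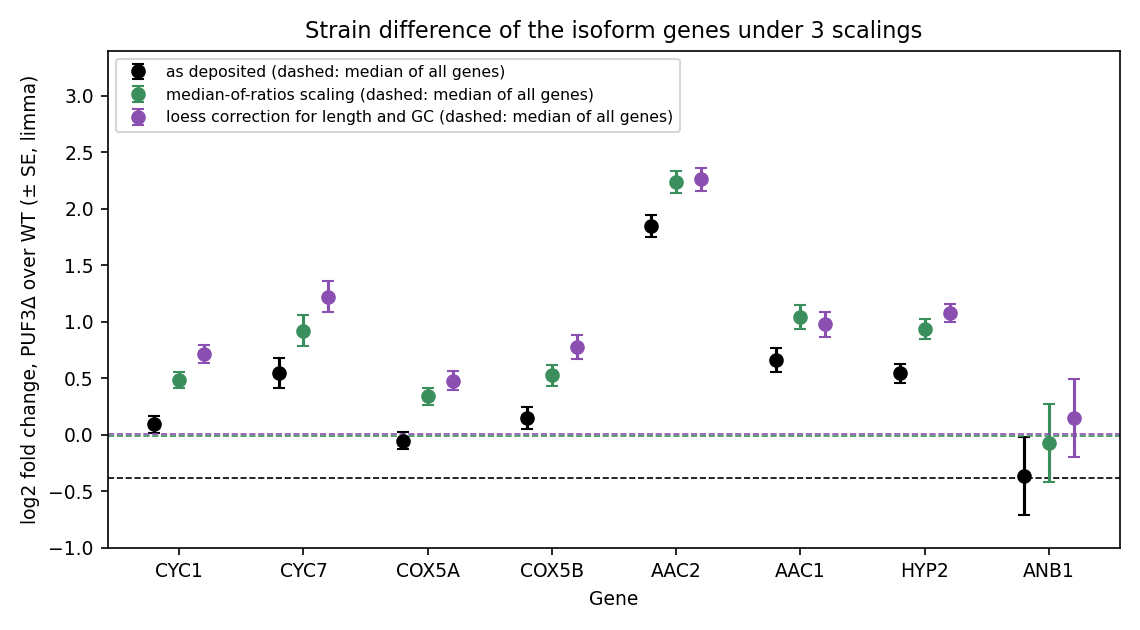
Log2 fold change of *PUF3Δ* over WT (points, limma) with its standard error (bars) for the 8 members tested, on the deposited RPKM (black), after median-of-ratios scaling (green) and after loess correction for length and GC content (purple). Dashed lines mark the median of all genes on each scale, -0.39 as deposited and close to 0 on the other scales, and *AAC2* lies highest on each.

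The ratio of isoforms within a library does not change when the whole library is rescaled, so it was computed for 5 pairs on the RPKM without a pseudocount. The *CYC1* to *CYC7* ratio was 32.6 and 29.8 in WT and 19.6 and 25.7 in *PUF3Δ*. Both *PUF3Δ* values were below the WT values, with a change of -0.47 in the log2 ratio (standard error 0.21), or a ratio at 0.720 of the WT level. *CYC7* took 3.08% (Wilson 95% interval 2.37% to 3.99%) and 3.36% (2.64% to 4.27%) of the reads of the pair in the WT libraries. In *PUF3Δ* it took 5.02% (4.08% to 6.18%) and 3.87% (3.12% to 4.78%), so by counting error alone the nearest libraries of the strains cannot be separated. Leaving out a library moved the change between -0.67, without *PUF3Δ* replicate 2, and -0.28, without *PUF3Δ* replicate 1.

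The *COX5A* to *COX5B* ratio was 43.8 and 46.9 in WT and 38.7 and 40.0 in *PUF3Δ*, a change of -0.20 in log2 (standard error 0.054), with no overlap between the strains. *COX5B* took 2.20% (Wilson 95% interval 1.80% to 2.69%) and 2.06% (1.70% to 2.50%) of the reads of the pair in WT, against 2.48% (2.03% to 3.03%) and 2.41% (2.00% to 2.89%) in *PUF3Δ*. These intervals overlap, so the difference was not detectable beyond counting error in single libraries.

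The ratios of the carriers differed the other way. The *AAC2* to *AAC3* ratio was 1361 and 1336 in WT and 19366 and 18003 in *PUF3Δ*, a change of 3.79 in log2 (standard error 0.054), or 13.8 times. *AAC3* took 0.0709% (Wilson 95% interval 0.0373% to 0.135%) and 0.0722% (0.0403% to 0.129%) of the reads of the pair in WT. In *PUF3Δ*, with 2 and 3 reads, it took 0.00499% (0.00137% to 0.0182%) and 0.00536% (0.00182% to 0.0158%), and the intervals of the strains do not meet. The standard error of this ratio comes from replicates whose few *AAC3* reads happened to be alike, and the intervals are the better guide to its precision.

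The *AAC2* to *AAC1* ratio, between the main and the minor aerobic carrier, was 56.8 and 52.8 in WT and 112.3 and 135.9 in *PUF3Δ*, a change of 1.17 in log2 (standard error 0.15), or 2.26 times. Here the counts are ample, with 217 to 400 reads of *AAC1* in a library, and the share of *AAC1* went from 1.68% and 1.81% of the reads of the pair to 0.858% and 0.710%. Both carriers rose in *PUF3Δ*, and the ratio was higher in each *PUF3Δ* library than in each WT library.

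The *HYP2* to *ANB1* ratio was 477.6 and 193.8 in WT and 652.0 and 569.1 in *PUF3Δ*, a change of 1.00 in log2 with a standard error of 0.66. The WT libraries differed from each other by more than the nearest libraries of the strains. The change was 1.65 without WT replicate 1 and 0.35 without WT replicate 2, from ratios that rest on 8 to 21 reads of *ANB1*.

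For each of the 5 ratios, both *PUF3Δ* libraries lay on the same side of both WT libraries. The side was lower for *CYC1* to *CYC7* and *COX5A* to *COX5B* and higher for the others. The *AAC2* to *AAC3* and *AAC2* to *AAC1* ratios share *AAC2*. How often other gene pairs separate in this way was not computed. A two-sided exact permutation test of each gave p = 0.33, the smallest that 2 libraries against 2 allow, and 0.33 after Benjamini-Hochberg adjustment over the 5. None of the 5 differences passed this test. The highest share of a hypoxic isoform in any library was the 5.02% of *CYC7*.

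**Figure D4:**
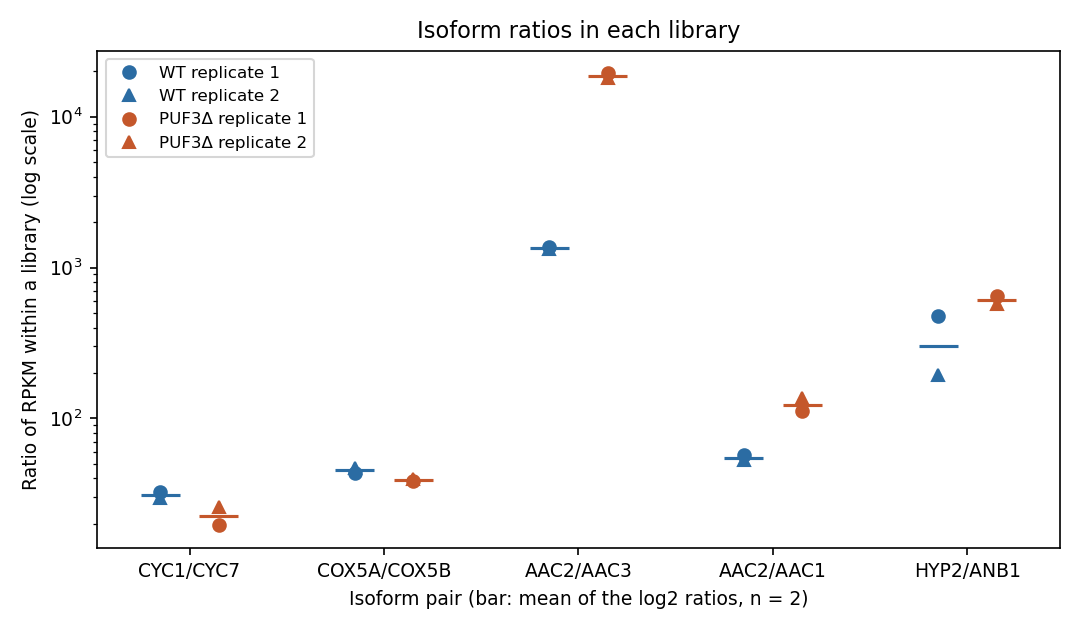
Ratio of RPKM between the isoforms of a pair within each library, on a log axis, in WT (blue) and *PUF3Δ* (orange), with bars at the mean of the log2 ratios (n = 2). The *AAC2* to *AAC3* ratio goes from 1361 and 1336 to 19366 and 18003, while the *CYC1* to *CYC7* ratio goes from 32.6 and 29.8 down to 19.6 and 25.7.

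Summed over its isoforms, the carrier family went from 1899 ± 99.0 RPKM (SD, n = 2) in WT to 6774 ± 667.7 in *PUF3Δ*. The hypusine factor went from 1070 ± 33.3 to 1559 ± 114.8. Cytochrome c went from 708.4 ± 14.4 to 765.0 ± 18.1 and the *COX5* subunit from 1251 ± 34.8 to 1211 ± 23.6. Since the aerobic isoforms hold nearly all of each sum, these totals follow *AAC2*, *HYP2*, *CYC1* and *COX5A*.

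Several regulators of the response to oxygen and heme also differed between the strains, as did most genes. Of 14 oxygen and heme regulators, 8 were higher and 3 lower in *PUF3Δ*, with a median log2 fold change of 0.48, against 18.9% and 54.2% of all genes and a median of -0.39. Scaled by the median of ratios, 11 of them were higher and 1, *HAP3*, was lower, beside 33.9% and 33.1% of all genes. Under loess 9 were higher and 1 lower, beside 33.2% and 31.9% of all genes. *HAP4*, the activating subunit of the Hap complex, had 195.6 and 270.3 RPKM in WT and 475.0 and 509.6 in *PUF3Δ* (log2 fold change 1.09, SE 0.15, limma adjusted p = 0.00043). The DNA-binding subunits of the same complex were lower, *HAP3* with a log2 fold change of -1.11, *HAP5* with -0.53 and *HAP2* with -0.40. After median-of-ratios scaling, *HAP3* alone of these stayed lower (-0.72, limma adjusted p = 0.00095), while *HAP5* had -0.14 (adjusted p = 0.32) and *HAP2* -0.01 (adjusted p = 0.91).

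*ROX1*, the repressor of hypoxic genes, had 608.9 and 749.2 RPKM in WT and 863.9 and 854.4 in *PUF3Δ* (log2 fold change 0.35, SE 0.11, limma adjusted p = 0.022). *HAP1*, the heme-sensing activator, had 58.0 and 64.5 in WT and 103.4 and 94.6 in *PUF3Δ* (log2 fold change 0.68, SE 0.10, limma adjusted p = 0.00057). The size for *HAP1* depended on the scale, with 1.07 after median-of-ratios scaling and 0.27 under loess (limma adjusted p = 0.00017 and 0.021). As deposited, the largest increases were those of *MGA2*, an activator of the fatty acid desaturase gene under low oxygen, with 1.34, of *HAP4*, and of *IXR1*, a regulator of *COX5B* and other hypoxic genes, with 0.73. *TUP1*, of the corepressor that works with Rox1, had 0.70. The genes of its partners, *CYC8* and *MOT3*, had 0.16 and 0.19 and missed the threshold (limma adjusted p = 0.16 and 0.085). After median-of-ratios scaling, *CYC8* and *MOT3* had 0.55 and 0.57 (limma adjusted p = 0.0025 and 0.0012). Under loess they had -0.015 and 0.46 (limma adjusted p = 0.88 and 0.0017).

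Of 14 genes for proteins that work with the members, 3 were higher and 7 lower, with a median log2 fold change of -0.17. These shares are close to the 18.9% and 54.2% of all genes. *MIR1*, the mitochondrial phosphate carrier, rose by 0.75, *CYC3*, the lyase that attaches heme to cytochrome c, by 0.67, and *POR1*, the main porin of the outer membrane, by 0.53. *POR2*, the minor porin, had -1.21, *CYC2*, which acts in heme attachment to cytochrome c, -0.45 and *COX8*, another oxidase subunit, -0.39. The porin genes are again a main and a minor form, and *POR1* had 4680 and 4975 RPKM in WT and 7262 and 6664 in *PUF3Δ* where *POR2* had 29.3 and 26.3 and then 12.3 and 10.6. *DYS1* and *LIA1*, the enzymes that make hypusine, had -0.35 and -0.27 as deposited but 0.04 and 0.12 after median-of-ratios scaling, where *CYC2* had -0.07 and *COX8* -0.0028. On that scale 7 of the 14 were higher and 1, *POR2*, was lower, beside 33.9% and 33.1% of all genes. Under the loess correction 10 were higher and 1 lower, beside 33.2% and 31.9% of all genes. There the oxidase subunit genes *COX8*, *COX9* and *COX12* turned from lower to higher calls, with 0.41, 0.27 and 0.43 (limma adjusted p = 0.0028, 0.015 and 0.0015). As deposited, 1 was called lower without *PUF3Δ* replicate 1 and 3 without *PUF3Δ* replicate 2.

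Of 17 other genes known as hypoxic or anaerobic, 16 were tested, 3 of them higher and 7 lower, with a median of -0.19, again near the 18.9% and 54.2% of all genes. *OLE1*, the fatty acid desaturase, had 354.4 and 410.4 RPKM in WT and 1329 and 1391 in *PUF3Δ* (log2 fold change 1.83, SE 0.09). *NCP1*, the reductase of cytochrome P450, had 0.97 and *HMG2*, the hypoxic isoform of HMG-CoA reductase, 0.77. Of 8 *DAN* and *TIR* genes, which encode cell wall proteins of anaerobic growth, all but *DAN1* were tested. Among those tested, 5 were called lower, *TIR1*, *DAN3*, *TIR2*, *TIR4* and *DAN2*. Among all genes tested, 54.2% were called lower, and this subset of the list was not set in advance. *TIR1* went from 78.5 and 41.6 RPKM to 8.96 and 8.52 (log2 fold change -2.58, SE 0.26), *DAN3* had -1.72 and *TIR2* -0.98. *DAN4* and *TIR3* had -0.19 each and did not pass the test (limma adjusted p = 0.16 and 0.27), and both had 0.18 on the median-of-ratios scale, while under loess *DAN4* was called lower (-0.49, adjusted p = 0.0065). *DAN2* and *DAN3* belong to a family of near-identical genes, and their reads could have been divided among copies. *DAN1* had 3 reads over the 4 libraries together and was not tested. After median-of-ratios scaling 6 of the 16 tested genes were higher and 6 lower, beside 33.9% and 33.1% of all genes. *TIR1*, *DAN3*, *TIR2*, *TIR4* and *DAN2* were all still called lower on that scale. Under loess 5 were higher and 7 lower, beside 33.2% and 31.9% of all genes. The median of the list was then -0.21, against 0.0081 for all genes.

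**Figure D5:**
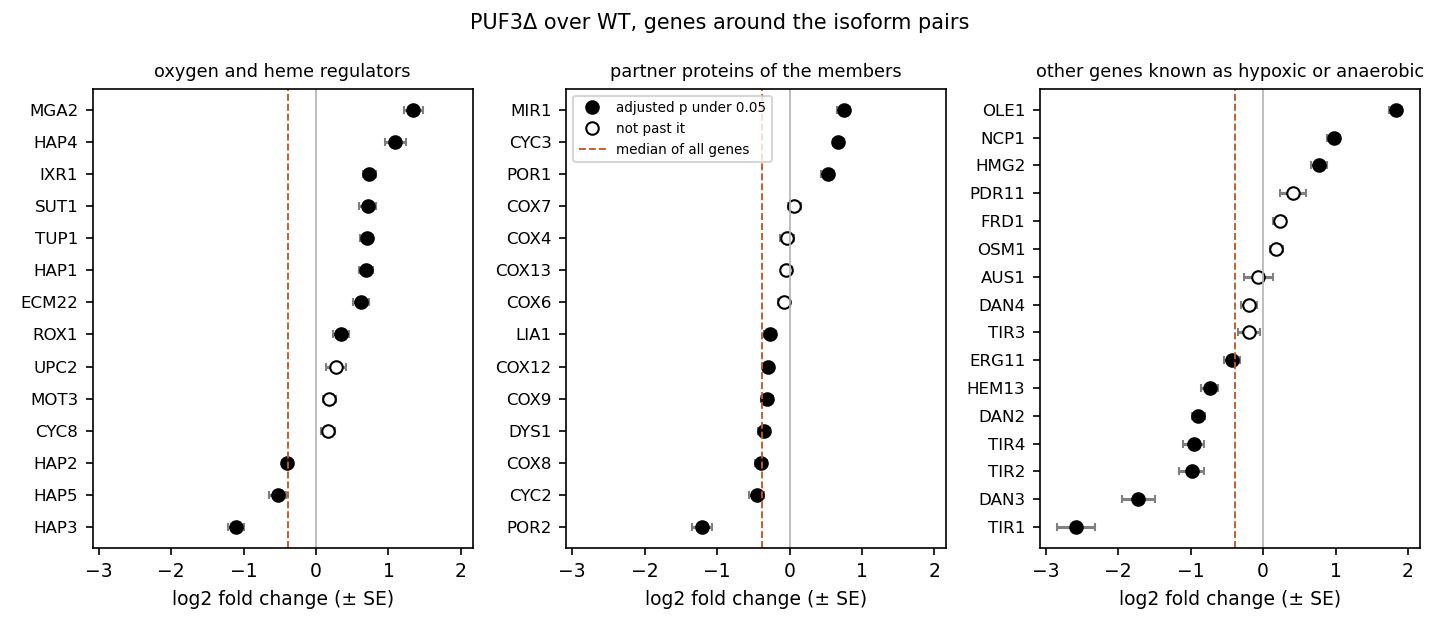
Log2 fold change of *PUF3Δ* over WT (points, with the standard error from limma as bars) for the 14 regulators, the 14 partner proteins and the 16 tested hypoxic or anaerobic genes. Filled points are past an adjusted p of 0.05, and the dashed line marks the median of all genes at -0.39. *MGA2* and *HAP4* lie highest among the regulators, and *OLE1* and *TIR1* at the ends of the hypoxic genes.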

How the data were processed

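Per the labels and methods, the authors aligned reads to the yeast genome using SOAP2, version not given in the sources used here, and deposited RPKM, 1 value for each gene in each library. The submitters' processing notes name R64, but the listed coordinates of 7 of the 9 members differ from RefSeq R64, so positions and sequences come from RefSeq R64 alone, joined by identifier. The deposited RPKM times length summed to 1000000 per library. The members and lists were chosen with earlier results of these data known. The main test was limma (version 3.58.1, R 4.3.3, with a mean-variance trend and no replicate block). It used log2(RPKM + 1) of the 5860 genes whose mean RPKM was 1 or more, with Benjamini-Hochberg adjustment over all of them. Ratios had exact permutation tests in Python 3.11.15, and read shares had Wilson 95% intervals (scipy 1.17.1) that cover counting error only. The test was first tried on simulated reads. Genes named are the 9 members, *PUF3*, in each list the 3 largest changes past the threshold each way with *HAP1*, *ROX1* and *HAP4*, and the 3 profiles nearest to a member whose change exceeded 1. *TUP1*, *CYC8*, *MOT3*, *DYS1*, *LIA1*, *COX9*, *COX12*, *TIR3*, *TIR4*, *DAN1*, *DAN2* and *DAN4* were named after their values were seen. Alternatives were another pseudocount, other filters, scalings and corrections, voom, a replicate block and leaving out each library.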

Additional observations from a re-analysis of the deposited data

How the results depend on the processing

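As deposited, 1108 genes were called higher and 3175 lower in *PUF3Δ*. Median-of-ratios scaling gave 1989 and 1940, quantile normalization 1869 and 2003, and the loess correction for length and GC content 1863 and 1787. Leaving out a library gave 826 to 1222 higher and 2629 to 3147 lower genes. The log2 fold change of *COX5A* turned from -0.05 to 0.34, 0.028 and 0.48 under these 3 scalings, and that of *ANB1* from -0.37 to 0.15 under quantile normalization, 0.15 under loess and 0.11 without WT replicate 2, while it was -0.84 without WT replicate 1. The cause was not tested. The changes of the 5 isoform ratios kept their direction under every alternative that gave a value, but not their size. Quantile normalization took *CYC1* to *CYC7* from -0.47 to -0.80 and *COX5A* to *COX5B* from -0.20 to -0.57. It took *AAC2* to *AAC1* from 1.17 to 0.81 and *HYP2* to *ANB1* from 1.00 to 0.49. The strains were then no longer separated in the *HYP2* to *ANB1* ratio (exact permutation p = 0.67). With a pseudocount of 1 the change of the *AAC2* to *AAC3* ratio was 2.65, and quantile and loess values could not be had for it, since *AAC3* lay below the filter. The deviations of same-numbered libraries from their strain means had a correlation of -0.014 over 5860 genes. With 2 libraries per strain these deviations mirror each other. This single value therefore does not show whether same-numbered libraries share more than a number. The replicate block gave 1067 higher and 3117 lower genes and changed no call of the members, and as exact sign flips over the ratios it gave p = 0.5, the smallest that 2 pairs allow. *AAC3* and *ANB1*, with 2 to 21 reads in a library, are limited by depth.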
